A study of Homo sapiens with 15 samples.

Results

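The genes described here are regulators of apoptosis, the programmed death of a cell: the BCL2 family, caspases, death receptors with their adaptors, the apoptosome with the mitochondrial factors that feed it, inhibitors of apoptosis and the DNA fragmentation factor. They were chosen as a list of 39 genes by function. A gene entered through the probe sets that carry its symbol alone, and the brightest of these, by its mean of all 15 arrays, stood for it. In this way 38 of the 39 genes, with 125 probe sets, were found among 19775 genes. RIPK1, an adaptor kinase, was not analysed here.

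RNA came from SKOV3ip1, a human epithelial ovarian cancer line derived from SK-OV-3, and was read on 15 Affymetrix U133 Plus 2.0 arrays as log2 expression. Of 5 cultures, the no folate culture spent 7 days in medium lacking folate. The 003, MORAb003, 004 and folate cultures had folic acid in their medium for the same 7 days, in a stated range of 2 to 10 nM (the unit is written nm there, and the sample titles name MTF or 5-MTF in place of folic acid). The 003, MORAb003 and 004 cultures also received the antibody of that name for 24 hours, with 004 labelled as the control antibody. MORAb-003 binds folate receptor alpha, the product of FOLR1, and whether the names 003 and MORAb003 stand for 1 antibody is not stated in the labels. Each condition was 1 culture that gave 1 RNA extract, and 3 aliquots of it were hybridised. The p-values therefore compare extracts and measure only hybridisation error. No test across cultures is possible.

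Apoptosis is reached along routes that converge on caspases, proteases made as inactive precursors. In the extrinsic route, a ligand such as FAS ligand or TRAIL (TNFSF10) gathers death receptors, the adaptor FADD and initiator caspases CASP8 or CASP10 into a complex, which CFLAR restrains. In the intrinsic route, BH3-only proteins such as BIK and PMAIP1 (NOXA) counter BCL2, BCL2L1 and MCL1, so that BAX and BAK1 open the outer mitochondrial membrane. Released cytochrome c (CYCS) joins APAF1 to activate CASP9, while XIAP blocks caspases and DIABLO and HTRA2 relieve that block. Much of this control acts on proteins, by cleavage and binding, which arrays of messenger RNA do not read.

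Some facts of the arrays touch every result below. FOLR1 was abundant in all 5 extracts, with means of 13.80 in no folate, 13.79 in 003, 14.06 in MORAb003, 13.51 in 004 and 13.53 in folate. All 11 epithelial markers reached the level required for testing in every extract, as did 2 of 4 leukocyte markers and 5 of 7 fibroblast and endothelial markers; the summed level (log2) of the leukocyte list ran from 8.59 to 8.70 and that of the fibroblast and endothelial list from 10.44 to 10.75. The gap between the 3′ and 5′ probe sets of actin, a measure of shortened RNA or incomplete labelling, averaged 4.09 in no folate, 4.02 in 003, 2.42 in MORAb003, 3.46 in 004 and 3.24 in folate (log2; SD 0.16, 0.10, 0.13, 0.31 and 0.13 in that order; n = 3 arrays each). The gap was thus smallest in the MORAb003 extract and largest in the no folate and 003 extracts, and its part in the differences below was not tested. Replicate 1 of the 004 extract stood apart. It correlated with the other arrays of its extract at no more than 0.950 (Pearson's r over probe sets), against at least 0.993 between the arrays of each other extract. It was the lowest of the 15 arrays for 26 of the 36 tested apoptosis genes, or 72.2%, and for 52.0% of all tested genes. Counts of called genes, and the calls against 004, are therefore given with and without it, and other 004 means include it unless stated. Because all arrays share 1 estimate of error, it also widens the error of comparisons that do not involve 004.

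A gene was tested where at least 1 extract mean reached 6.60, the median of all probe sets, which 14369 genes did. Of the apoptosis genes, 36 were tested, and in each of these every extract mean passed that level. The exceptions were TNFSF10, the TRAIL ligand, with extract means of 5.01 to 5.16, and BCL2A1, an anti-apoptotic BCL2 relative best known in blood cells, with 4.71 to 4.80. A gene was called at an adjusted p under 0.05 (limma, Benjamini-Hochberg over all tested genes) with a difference of at least 1.5-fold. In this bulk RNA, a change in every cell and a change in the share of cells that carry the transcript cannot be told apart.

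The FAS, CASP8 and APAF1 promoters are shown because these 3 genes gave the differences between extracts that the results below return to most: a death receptor, the caspase that it recruits, and the scaffold of the mitochondrial route. Each sequence is the first RefSeq promoter window listed for the gene (GRCh38.p14), from 250 bases before to 50 after the start, read 5′ to 3′ on the plus strand. FAS lies at chr10:88990548-88990847, CASP8 at chr2:201233213-201233512 and APAF1 at chr12:98645040-98645339. Capitals mark matches on either strand to the AP-1 motif TGANTCA, the ETS motif CCGGAAG or the GC box GGGCGG. The motifs do not overlap in these windows.
FAS promoter: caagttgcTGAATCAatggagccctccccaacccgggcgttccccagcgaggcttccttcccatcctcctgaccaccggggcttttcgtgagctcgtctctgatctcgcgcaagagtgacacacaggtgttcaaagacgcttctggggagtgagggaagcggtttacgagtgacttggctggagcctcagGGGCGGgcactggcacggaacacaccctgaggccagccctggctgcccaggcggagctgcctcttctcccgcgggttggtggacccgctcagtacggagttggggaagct
CASP8 promoter: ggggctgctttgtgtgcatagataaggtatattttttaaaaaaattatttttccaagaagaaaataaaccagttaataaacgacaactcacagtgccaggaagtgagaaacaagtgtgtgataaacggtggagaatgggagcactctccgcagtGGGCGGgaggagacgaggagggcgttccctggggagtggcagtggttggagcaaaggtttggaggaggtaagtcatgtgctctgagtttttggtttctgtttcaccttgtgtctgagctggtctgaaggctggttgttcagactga
APAF1 promoter: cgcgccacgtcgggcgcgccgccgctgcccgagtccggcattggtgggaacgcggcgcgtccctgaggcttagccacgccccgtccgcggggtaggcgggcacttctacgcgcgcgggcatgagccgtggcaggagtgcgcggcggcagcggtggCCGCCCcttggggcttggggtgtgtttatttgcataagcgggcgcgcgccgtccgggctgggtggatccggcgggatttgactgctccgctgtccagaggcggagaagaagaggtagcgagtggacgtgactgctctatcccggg
Of the windows shown, that of FAS held an AP-1 match and a GC box, and those of CASP8 and APAF1 a GC box alone. FAS and CASP8 each had 3 windows in the table, and an AP-1 match lay in a CASP8 window that is not shown. In the RefSeq table, 31 of the 39 genes had 58 windows. An AP-1 match lay in 10.34% of these and in 7.71% of all 35116 windows, an ETS match in 8.62% and 10.26%, and a GC box in 70.69% and 44.95%. A match is a run of letters and says nothing of a bound factor, and the motifs were chosen with the expression results known.

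**Figure D1:**
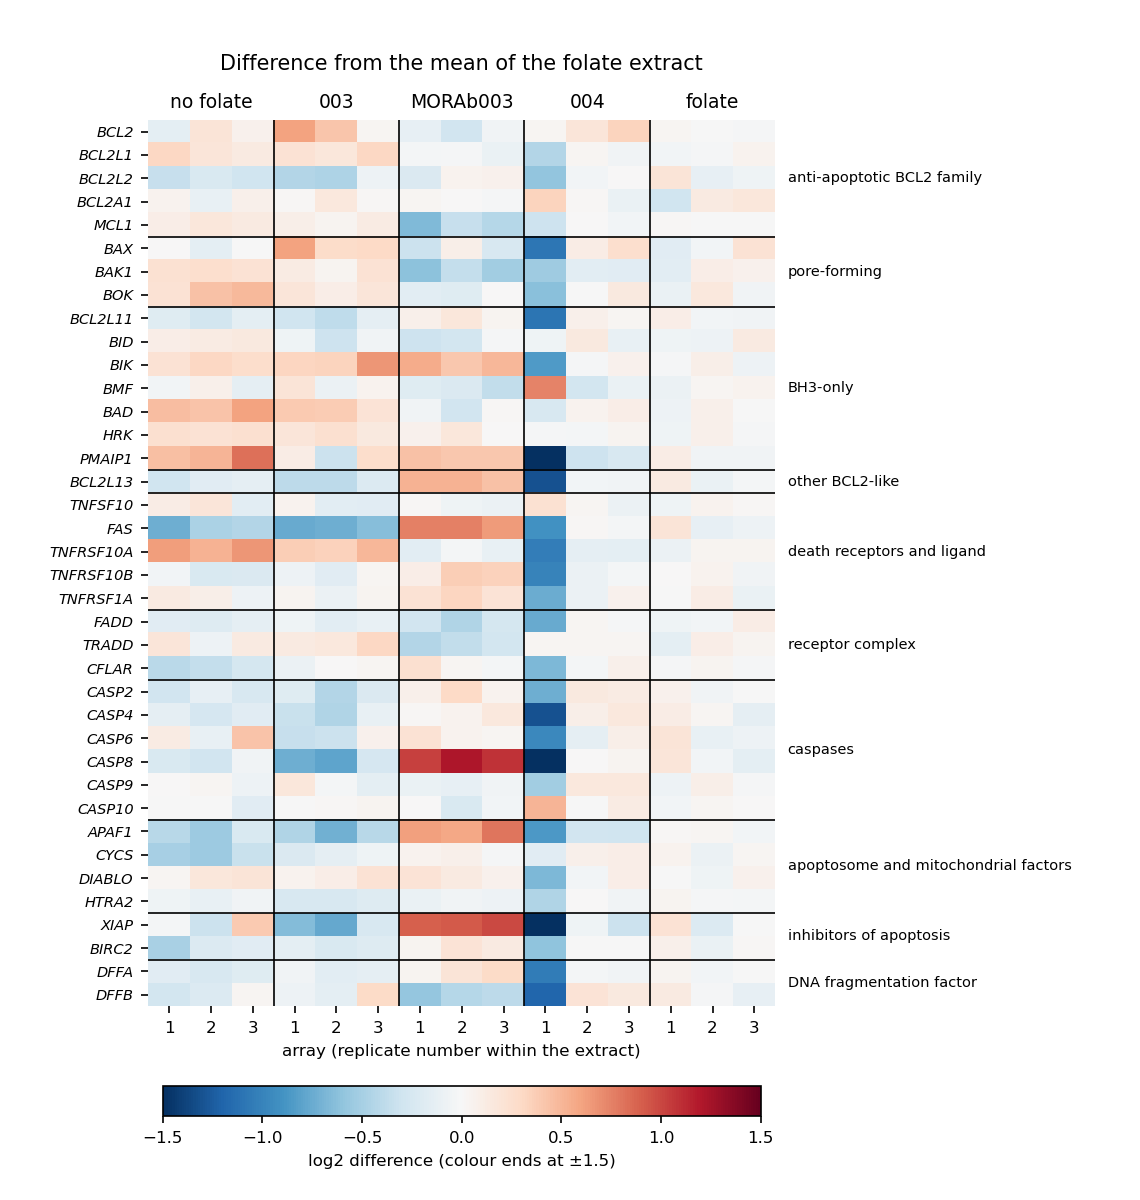
Each row is 1 of the 38 apoptosis genes, grouped by role, and each column 1 array. Colour gives the log2 difference from the mean of the folate extract (red higher, blue lower, colour ending at ±1.5). FAS, CASP8, APAF1 and XIAP are red on all 3 MORAb003 arrays, and replicate 1 of 004 is blue for most genes.

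The MORAb003 extract held the largest differences. Against the 004 extract, 8 of the 36 tested genes were called higher and 0 lower. The 8 were XIAP, CASP8, PMAIP1, APAF1, FAS, BCL2L13, BIK and TNFRSF10B. These are 22.2% of the tested apoptosis genes, beside 17.6% of all tested genes called higher and 2.32% called lower. The median log2 difference was 0.23 over the apoptosis genes and 0.04 over all tested genes. Both medians include replicate 1 of 004, the lowest array for 72.2% of the apoptosis genes but 52.0% of all tested genes. They are not given here without it, so they do not show that the apoptosis genes lay higher as a set. Without replicate 1 of 004, 5 were higher and 1 lower (13.9% and 2.78%, beside 9.79% and 2.37% of all tested genes). Against the folate extract, 2 were higher and 0 lower (5.56%, beside 4.77% and 1.81%), and without that 004 array 4 were higher and 0 lower (11.1%, beside 8.23% and 1.96%). The count higher than 004 was 11 without replicate 2 of 004 and 12 without replicate 3, where 23.4% and 24.3% of all tested genes were higher. The 2 calls against folate, FAS and APAF1, became 0 without replicate 2 or 3 of folate or replicate 3 of MORAb003, 1 without replicate 1 or 2 of MORAb003, and 3 genes were called without replicate 2 or 3 of 004. All these calls were of higher genes, and in the same fits 2.06% to 5.73% of all tested genes were called higher. Over these single omissions the log2 difference ran from 0.66 to 0.82 for FAS and from 0.60 to 0.71 for APAF1. Both comparisons use the same MORAb003 arrays. On all 3 arrays MORAb003 was the highest of the 5 extracts for 8 of the 36 genes, beside 20.4% of all tested genes, and the lowest for 2, beside 10.2%. The shares of apoptosis genes called higher lay within a few percentage points of those over all genes.

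**Figure D2:**
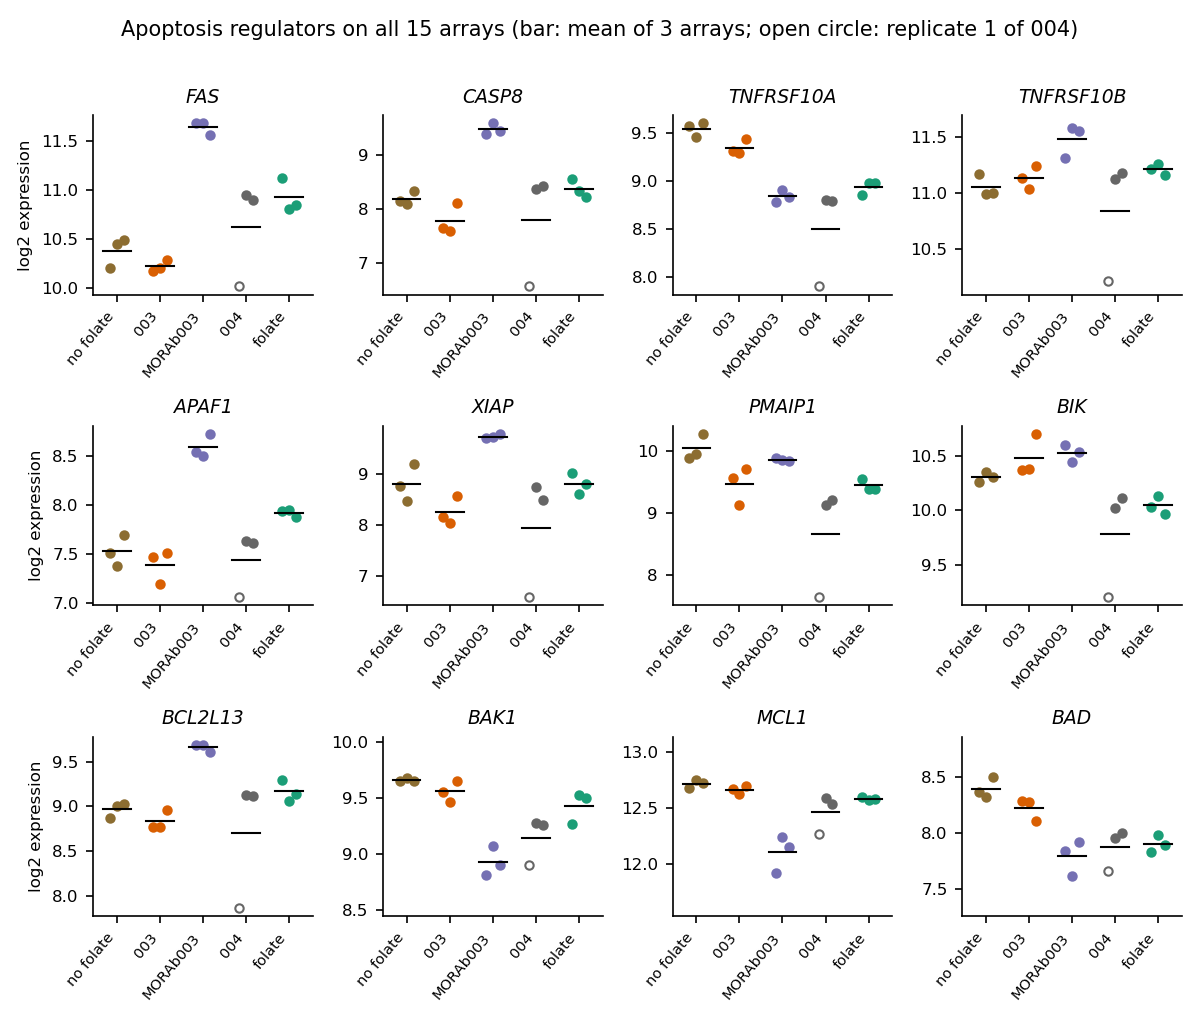
Points are log2 expression on each of the 15 arrays for 12 apoptosis genes, with the extracts along the x axis and a bar at the mean of 3 arrays; the open circle is replicate 1 of 004. The MORAb003 arrays lie above all others for FAS, CASP8, APAF1, XIAP, BCL2L13 and TNFRSF10B and below all others for MCL1, and the open circle is low in most panels.

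Among the death receptors, FAS differed most. FAS, the receptor for FAS ligand, stood at 11.69, 11.68 and 11.57 on the MORAb003 arrays, against 10.02, 10.95 and 10.90 on the 004 arrays and 11.12, 10.81 and 10.85 on the folate arrays. All 3 MORAb003 arrays were above every other array of the series. The log2 difference was 1.03 against 004 (SE 0.19, adjusted p = 0.00223) and 0.72 against folate (SE 0.19, adjusted p = 0.0306). Leaving out replicate 1 of 004, the difference from 004 was smaller, at 0.72 (adjusted p = 5.35e-05), and that from folate stayed at 0.72 (adjusted p = 1.76e-05). The arrays fell on 2 labelled days, and on each of them FAS was 0.72 higher than in folate. TNFRSF10B, the TRAIL receptor DR5, stood at 11.32, 11.58 and 11.55 in MORAb003, against 10.21, 11.13 and 11.18 in 004 and 11.22, 11.26 and 11.16 in folate. Its log2 difference from 004 was 0.64 (SE 0.19, adjusted p = 0.0219), and 0.33 without replicate 1 of 004, which is under 1.5-fold. With the mean of all its probe sets in place of the brightest, the difference turned to -0.034 (adjusted p = 0.737). TNFRSF1A, the receptor for tumour necrosis factor, was 0.50 higher than in 004 (0.26 without replicate 1 of 004) and 0.25 higher than in folate, all under 1.5-fold. TNFRSF10A, the TRAIL receptor DR4, averaged 8.84 in MORAb003, against 8.50 in 004 and 8.94 in folate, and was not called.

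CASP8, the initiator caspase of the receptor complex, had the second largest difference from 004. It stood at 9.40, 9.60 and 9.46 in MORAb003, against 6.57, 8.38 and 8.42 in 004 and 8.57, 8.34 and 8.24 in folate. The MORAb003 arrays were again above all others, and the 6.57 of replicate 1 of 004 lay far under the other arrays of its extract. The log2 difference was 1.69 against 004 (SE 0.35, adjusted p = 0.00378) and 1.08 without replicate 1 (adjusted p = 1.79e-05). Against folate it was 1.10, which missed the threshold with all arrays (adjusted p = 0.06) and passed without replicate 1 of 004 (adjusted p = 4.37e-06). The other caspases were not called in either comparison. CASP2, an initiator linked to the PIDD1 platform, CASP4, an inflammatory caspase, CASP6, an executioner, CASP9, the apoptosome's initiator, and CASP10, the paralogue of CASP8, differed from folate by -0.09 to 0.14. The adaptors of the receptor complex lay lower or level. TRADD, the adaptor of TNFRSF1A, stood at 9.01, 9.08 and 9.18 in MORAb003, against 9.48, 9.49 and 9.49 in 004 and 9.31, 9.55 and 9.49 in folate. That left it under every other array, with differences of -0.40 and -0.36 (adjusted p = 0.011 and 0.037), which are under 1.5-fold. FADD, which couples receptors to CASP8, averaged 9.83 in MORAb003, against 9.92 in 004 and 10.16 in folate. CFLAR, the brake on CASP8, averaged 9.19, against 8.90 and 9.11, and neither gene was called.

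In the mitochondrial route, APAF1, the scaffold of the apoptosome, was higher in the MORAb003 extract against both controls. It stood at 8.54, 8.50 and 8.72 in MORAb003, against 7.06, 7.63 and 7.61 in 004 and 7.93, 7.95 and 7.87 in folate, with no overlap. The log2 difference was 1.16 from 004 (SE 0.15, adjusted p = 0.000244) and 0.67 from folate (SE 0.15, adjusted p = 0.0133). Without replicate 1, the difference from 004 was 0.97. On the 2 array days it was 0.58 and 0.85 above folate. The other factors of this route were not called. CYCS averaged 13.35 in MORAb003, against 13.31 in both controls. DIABLO, which displaces XIAP from caspases, averaged 11.05, against 10.71 in 004 and 10.91 in folate. HTRA2, a mitochondrial serine protease, averaged 10.50, against 10.41 and 10.58.

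XIAP, which binds and inhibits caspases, stood at 9.70, 9.72 and 9.79 in MORAb003, against 6.57, 8.74 and 8.48 in 004 and 9.01, 8.60 and 8.79 in folate. These MORAb003 arrays were higher than all others. The log2 difference from 004 was 1.81 (SE 0.40, adjusted p = 0.00539) and 1.13 without replicate 1 (adjusted p = 0.00013). From folate it was 0.94, which missed the threshold with all arrays (adjusted p = 0.15) and passed it without replicate 1 of 004 (adjusted p = 0.000226). BIRC2, a ubiquitin ligase of the same family that acts at the TNF receptor, averaged 11.75 in MORAb003, against 11.42 in 004 and 11.62 in folate, and was not called.

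Within the BCL2 family, 3 genes rose against 004 in the MORAb003 extract, namely PMAIP1, BCL2L13 and BIK. PMAIP1, a BH3-only protein that binds MCL1, stood at 9.88, 9.85 and 9.84 in MORAb003, against 7.64, 9.13 and 9.20 in 004 and 9.55, 9.39 and 9.38 in folate. Its log2 difference from 004 was 1.20 (SE 0.30, adjusted p = 0.0101), or 0.69 without replicate 1, and 0.41 from folate, which was not called. BCL2L13, a BCL2-like protein of the mitochondrial outer membrane, stood at 9.68, 9.69 and 9.61, against 7.87, 9.13 and 9.11 in 004 and 9.30, 9.07 and 9.14 in folate. The difference from 004 was 0.96 (SE 0.24, adjusted p = 0.0099) but 0.54, under 1.5-fold, without replicate 1. BIK, a BH3-only protein of the endoplasmic reticulum, stood at 10.61, 10.45 and 10.54, against 9.20, 10.02 and 10.11 in 004 and 10.03, 10.13 and 9.97 in folate. It was 0.75 higher than in 004 (SE 0.19, adjusted p = 0.00874) and 0.46 higher without replicate 1, again under 1.5-fold. Thus 2 of these 3 calls, and that of TNFRSF10B, were lost without the array that stood apart.

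Some family members lay lower in MORAb003 without reaching 1.5-fold. MCL1, a short-lived anti-apoptotic protein and among the brightest of the genes, stood at 11.92, 12.24 and 12.15, against 12.27, 12.59 and 12.53 in 004 and 12.60, 12.57 and 12.58 in folate. All 3 arrays were below every other array, at a log2 difference of -0.36 and -0.48 (adjusted p = 0.02 and 0.013). BAK1, a pore-forming member, stood at 8.82, 9.08 and 8.91, against 8.90, 9.28 and 9.26 in 004 and 9.27, 9.53 and 9.50 in folate. It was 0.50 lower than in folate on the log2 scale (adjusted p = 0.018), overlapped with 004 and was not called there. Without replicate 1 of 004, BAK1 did not overlap with 004, at -0.34 (adjusted p = 0.00932), which is under 1.5-fold. BCL2, BCL2L1 and BCL2L2, the anti-apoptotic members besides MCL1, differed from folate by -0.15, -0.05 and -0.03. DFFA, the inhibitor and chaperone of the nuclease DFFB, was 0.55 higher than in 004, but 0.22 without replicate 1 of 004, and 0.17 higher than in folate. DFFB, which cuts DNA between nucleosomes, stood at 7.45, 7.61 and 7.64 in MORAb003, against 6.84, 8.23 and 8.18 in 004 and 8.17, 8.01 and 7.91 in folate. It was called lower than in 004 only when replicate 1 was left out (log2 difference -0.64, adjusted p = 0.000695; -0.18 with all arrays).

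**Figure D3:**
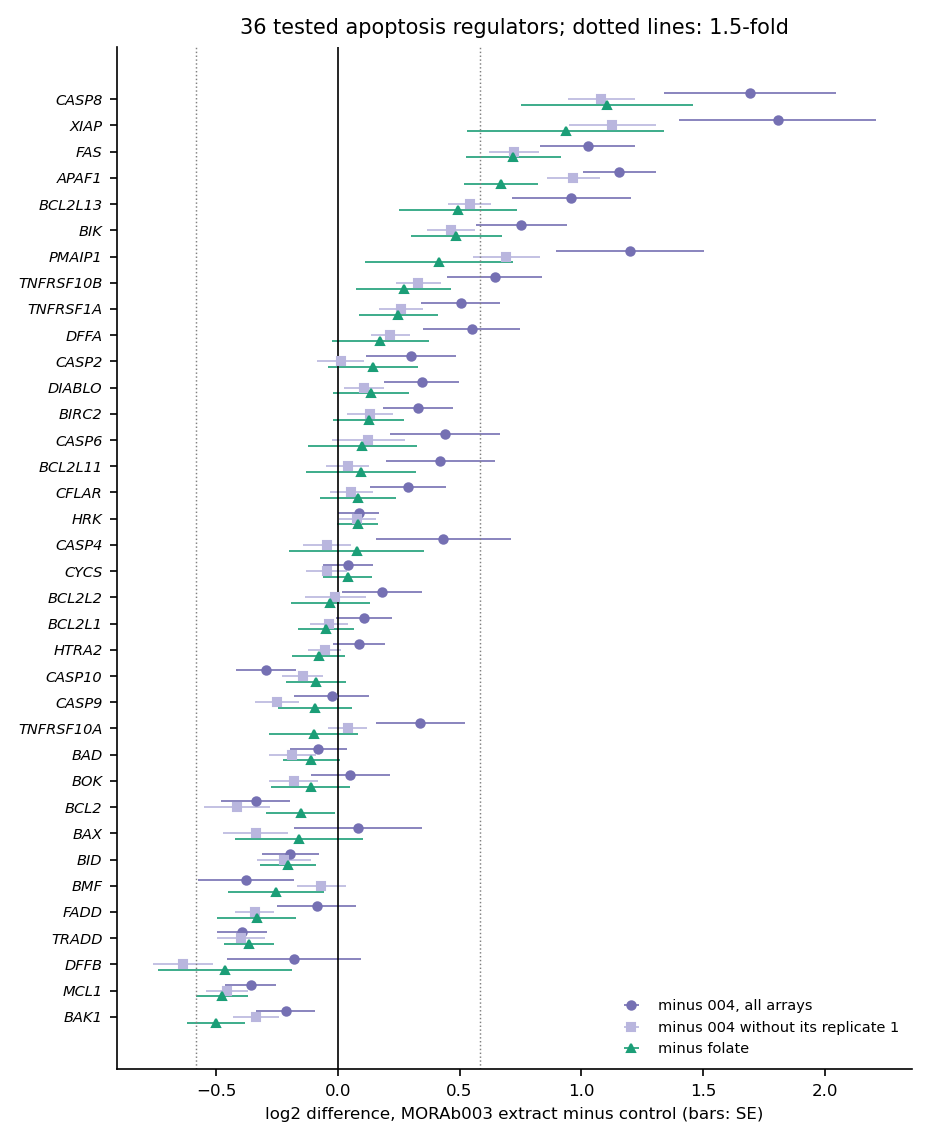
Points are log2 differences of the MORAb003 extract for the 36 tested apoptosis genes, with bars of 1 SE: purple circles minus 004, pale squares minus 004 without its replicate 1, and green triangles minus folate. Dotted lines mark 1.5-fold. Most squares lie to the left of the circles, while CASP8, XIAP, FAS and APAF1 stay to the right of the dotted line in all 3 series.

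The 003 extract differed less from its controls, and the calls depended on replicate 1 of 004. Against 004, 2 genes were called higher and 0 lower (5.56%, beside 3.07% of all tested genes higher and 0.397% lower). TNFRSF10A stood at 9.30, 9.29 and 9.44 in 003, against 7.90, 8.80 and 8.79 in 004 (log2 difference 0.84, SE 0.18, adjusted p = 0.0208). That difference rests on 1 probe set, 231775_at. The other tested probe sets of TNFRSF10A, 241371_at and 1552648_a_at, gave 0.10 and -0.04. BIK stood at 10.37, 10.38 and 10.70 in 003, against 9.20, 10.02 and 10.11 in 004 (0.71, SE 0.19, adjusted p = 0.0406). The count was 0 without any 1 of the 003 arrays (0.0766% to 0.536% of all tested genes higher), 4 without replicate 3 of 004 (7.7%), and 1 without any single no folate, MORAb003 or folate array (2.26% to 2.59%). Without replicate 1 of 004 both genes dropped under 1.5-fold, to 0.55 and 0.42. Then FAS (-0.70, adjusted p = 0.000206) and CASP8 (-0.61, adjusted p = 0.00338) were called lower instead, beside 0.793% of all tested genes higher and 5.45% lower. FAS stood at 10.17, 10.20 and 10.29 in 003 and CASP8 at 7.65, 7.59 and 8.13, under every folate array of each gene.

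Against folate, 0 of the 36 genes were called in 003 with all arrays (beside 0.431% of all tested genes higher and 1.59% lower); 7 had an unadjusted p under 0.05, as did 3080 of all tested genes. A count of 1, lower, was found without replicate 2 or 3 of 004, where 2.15% and 2.48% of all tested genes were lower. Without replicate 1 of 004, FAS (-0.71, adjusted p = 5.05e-05) and CASP8 (-0.59, adjusted p = 0.00148) were called lower, beside 0.731% of all tested genes higher and 6.45% lower. BAX, the other pore-forming protein, was the single gene whose 003 arrays (9.34, 9.02 and 9.04) lay above all others. It averaged 9.13, against 8.49 in 004 (8.91 without its replicate 1) and 8.74 in folate. The difference from 004 was 0.64, or 0.22 without replicate 1, and was not called. Over all tested genes, 4.02% had 003 as the highest extract on all 3 arrays and 0.418% as the lowest.

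Between the 003 and MORAb003 extracts, CASP8, XIAP, FAS and APAF1 gave the largest differences among the 36 genes. In 003 against MORAb003, 1 gene was called higher and 5 lower (2.78% and 13.9%, beside 7.79% and 17.6% of all tested genes). CASP8 (-1.70, adjusted p = 0.00196), XIAP (-1.49, adjusted p = 0.00916), FAS (-1.43, adjusted p = 0.000115), APAF1 (-1.20, adjusted p = 6.35e-05) and BCL2L13 (-0.82, adjusted p = 0.0142) fell on the log2 scale. BAK1 rose by 0.63 (adjusted p = 0.00111). XIAP stood at 8.15, 8.04 and 8.56 in 003, APAF1 at 7.47, 7.20 and 7.50, and BCL2L13 at 8.77, 8.77 and 8.97, all below the MORAb003 arrays given above. BAK1 stood at 9.56, 9.47 and 9.65 in 003, above all of them. The same 6 genes were called without replicate 1 of 004, beside 7.88% of all tested genes higher and 18.5% lower. In that setting CASP8 and MCL1 each had probe sets that passed the p threshold in both directions. MCL1 and TRADD (each 0.56 higher in 003), TNFRSF10A (0.50), BCL2 (0.50) and BAD (0.43) passed the p threshold under 1.5-fold. The actin gap averaged 4.02 in 003 and 2.42 in MORAb003, and its part in these differences was not tested.

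The culture without folate gave no call against the folate culture with all arrays. The count was 0 of 36, beside 0.905% of all tested genes called higher and 1.8% lower by limma; 8 had an unadjusted p under 0.05, as did 2684 of all tested genes. BAD, a BH3-only protein held inactive by growth factor signalling, stood at 8.36, 8.32 and 8.50 in no folate, against 7.82, 7.98 and 7.89 in folate (log2 difference 0.50, adjusted p = 0.033). CYCS stood at 12.82, 12.77 and 12.98, against 13.37, 13.23 and 13.34 (-0.46, adjusted p = 0.025). The extracts did not overlap for either gene, though both differences were under 1.5-fold.

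Without replicate 1 of 004, 2 genes rose and 0 fell in no folate against folate (beside 1.33% and 5.09% of all tested genes). TNFRSF10A stood at 9.57, 9.46 and 9.60 in no folate, against 8.85, 8.98 and 8.98 in folate (0.60, adjusted p = 1.69e-05, or 0.078 with all arrays). These values are from 231775_at alone. PMAIP1 stood at 9.89, 9.95 and 10.27, against 9.55, 9.39 and 9.38 (0.60, adjusted p = 0.00161; 0.32 with all arrays). Neither overlapped. FAS stood at 10.20, 10.45 and 10.49, against 11.12, 10.81 and 10.85, also without overlap, at -0.55 (adjusted p = 0.14 with all arrays). On all 3 arrays no folate was the highest extract for 5 genes, BAD, BAK1, BOK (a pore-forming relative of BAX), PMAIP1 and TNFRSF10A, beside 3.76% of all tested genes, and the lowest for CYCS, beside 0.717%. The 004 and the folate extracts were in that sense highest or lowest for none of the 36, as few genes were overall (0.16% and 0.752% for 004 above and below, 0.16% and 0.0487% for folate). Some margins of the no folate extract were small. Its lowest array was at 9.66 for BAK1 and 9.46 for TNFRSF10A, against 9.65 and 9.44 on the highest 003 array. For PMAIP1 it was at 9.89, against 9.88 on the highest MORAb003 array.

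Between the 004 and folate extracts, both without 003 or MORAb003, no gene was called by limma, 0 of 36 and 0% of all tested genes; 5 members had an unadjusted p under 0.05, as did 1276 of all tested genes, and 1 and 481 without replicate 1 of 004. The largest difference among the 36 was -0.87 (XIAP) with that array. Without it XIAP was at -0.19 and the largest was -0.30 (APAF1). Across both antibody cultures and both of these controls, BIK was the only tested apoptosis gene whose 6 antibody arrays lay above all 6 control arrays, beside 1.23% of all tested genes. None lay below, beside 0.181%. For BIK, the no folate arrays, without antibody, also lay above these control arrays, at 10.27, 10.35 and 10.31. BIK was read by a single probe set, 205780_at. Without replicate 1 of 004, BIK stayed above (beside 1.32% of all tested genes) and HTRA2 lay below (beside 1.96%), at 10.34, 10.34 and 10.38 in 003 and 10.48, 10.52 and 10.50 in MORAb003, against 10.58 and 10.53 in 004 and 10.62, 10.57 and 10.55 in folate. Leaving out replicate 2 of 003 also gave a count of 2, BIK and PMAIP1, both above. For PMAIP1 the lowest remaining antibody array was at 9.56 in 003, and the highest control array at 9.55 in folate. The share of all tested genes in that setting is not given here. With 2 cultures on each side, these counts are a description with no test.

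The members with the narrowest ranges came from several roles. CASP9 had extract means between 9.12 and 9.22, the smallest spread of the tested genes. HTRA2 (0.23) and HRK (0.24), a BH3-only protein, had the next smallest ranges of extract means on the log2 scale. BID, the BH3-only protein that CASP8 cleaves to link both routes, spanned 0.33 and BMF, a BH3-only protein tied to the cytoskeleton, 0.38. BCL2L11 (BIM), a BH3-only protein that binds all anti-apoptotic members, spanned 0.42. BID, BMF, BCL2L11, HRK, CASP9, CASP10 and BCL2L2 were called in none of the 7 comparisons with all arrays. At the other end, XIAP spanned 1.81, CASP8 1.70, FAS 1.43, PMAIP1 1.38 and APAF1 1.20.

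Probe sets of the same gene did not always move together. Of the genes, 27 had at least 2 tested probe sets, and 96 probe sets were fitted among 30127. The FAS probe sets moved the same way in MORAb003 against folate. They differed by 0.72 (204780_s_at), 0.91 (204781_s_at), 1.31 (216252_x_at) and 1.64 (215719_x_at) on the log2 scale, all with an adjusted p under 0.05. In no folate against folate the same 4 gave -0.55, -0.29, -1.32 and -1.17. A probe set ending in _x_at may also bind related transcripts. For CASP8, 213373_s_at, used above, gave 1.10, while 1553306_at and 207686_s_at gave -0.09 and 0.23. For XIAP, 228363_at gave 0.94 and the other 4 gave -0.05 to 0.28, and for APAF1, 204859_s_at gave 0.67 and 211554_s_at -0.05. The differences of CASP8, XIAP and APAF1 thus rest on 1 probe set each. Those of BCL2L13 also varied with the processing. Over 27 alternatives its log2 difference ran from 0.17 to 1.19 in MORAb003 against 004. In 003 against MORAb003 it ran from -0.91 to -0.12. Over the same alternatives, MORAb003 against folate ran from 0.18 to 0.71 for APAF1 and from 0.65 to 0.98 for FAS. MORAb003 against 004 ran from 0.52 to 2.02 for CASP8 and from 0.67 to 2.21 for XIAP. In 003 against MORAb003, CASP8 ran from -1.88 to -0.53 and XIAP from -1.64 to -0.34.

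Other genes had probe sets that differed more than the one used, again in MORAb003 against folate. PMAIP1 gave 0.41 on 204285_s_at and 1.44 on 204286_s_at (adjusted p = 0.002 for the second). CASP2 gave 0.14 on 226032_at but 1.37 on 209811_at, and CFLAR gave 0.08 on 210563_x_at but 0.70 on 235427_at. These brighter differences lie near the level of 6.60 required for testing. In folate, 209811_at averaged 6.40 and 235427_at 6.01, under that level, as they also were in 004 (6.32 and 5.86) and 003 (6.57 and 6.10). Both were tested only because another extract reached it. For PMAIP1, 204286_s_at averaged 6.60 in folate and 6.18 in 004. MCL1 gave -0.48 on 200797_s_at and -0.66 on 214057_at, but 0.32 on 200798_x_at. BCL2L1, which encodes BCL-xL and BCL-xS, gave -0.58 on 231228_at, 0.50 on 215037_s_at and 0.67 on 206665_s_at. Leaving out replicate 1 of 004, 3 genes had probe sets passing the p threshold in both directions in MORAb003 against folate, namely BCL2L1, BCL2L11 and TNFRSF10B. In 003 against MORAb003 there were 8, namely these genes with CASP4, CASP8, CFLAR, DFFA and MCL1. The distances of these probe sets from the 3′ end were not analysed here.

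**Figure D4:**
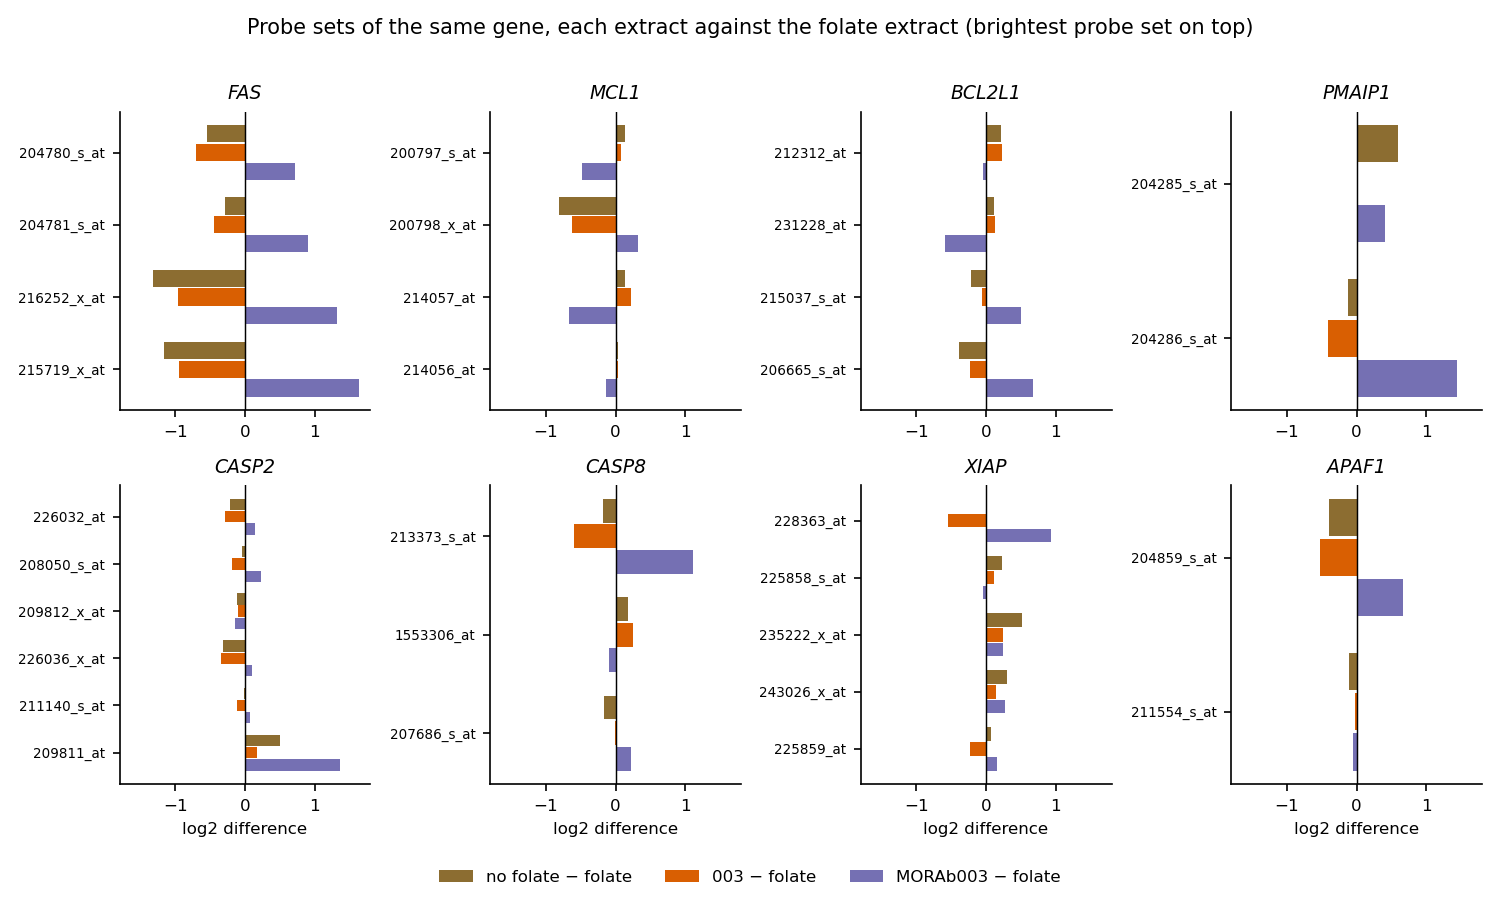
Bars are log2 differences of each tested probe set of 8 apoptosis genes, for the no folate (brown), 003 (orange) and MORAb003 (purple) extracts minus the folate extract, with the brightest probe set on top. The 4 FAS probe sets all point to the right in MORAb003, whereas only 1 of the probe sets of CASP8, XIAP and APAF1 is long.

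Further genes of the pathway, chosen as a separate list, gave 25 tested of 29. In no folate against folate, 0 rose and 3 fell (12%, beside 1.8% of all tested genes lower), namely FAIM, an inhibitor of FAS-driven death (-1.11), BNIP3, a mitochondrial BH3-containing protein (-0.85), and BCLAF1, a BCL2-binding factor (-0.78). In 003 against folate BNIP3 alone fell (-1.07; 4% of the list, beside 1.59% lower). In 003 against 004, ENDOG, a mitochondrial nuclease, rose (0.87) and BNIP3 fell (-0.80), each 4% of the list beside 3.07% higher and 0.397% lower. ENDOG was at 0.56, under 1.5-fold, and BNIP3 at -1.04 without replicate 1 of 004. In MORAb003 against folate BIRC6, a large relative of XIAP, rose by 0.81 and BAG1, a BCL2-binding co-chaperone, fell by 0.66, each 4% of the list beside 4.77% higher and 1.81% lower. Against 004, BIRC6 rose by 1.29, TNFRSF10D, a decoy TRAIL receptor, rose by 0.78 and TNFRSF10C, another decoy, fell by 0.59 (8% higher and 4% lower, beside 17.6% and 2.32%). Leaving out replicate 1 of 004, the log2 difference was 1.02 for BIRC6 and -0.63 for TNFRSF10C, while TNFRSF10D, at 0.34, was under 1.5-fold. In 003 against MORAb003, BAG1, ENDOG, TNFRSF10C and PIDD1, the platform of CASP2, were higher, and BIRC6, BCLAF1 and BNIP3L, a relative of BNIP3, were lower (16% and 12% of the list, beside 7.79% and 17.6% of all tested genes). The calls for BNIP3, BIRC6, BAG1, FAIM and BCLAF1 against folate held without replicate 1 of 004.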

How the data were processed

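The deposited table gives log2 expression for each probe set, from 4.00 to 15.5, with array medians of 6.53 to 6.67. How the authors summarised and normalized them is not given in the sources used here, so values were used as deposited. RNA was isolated with Trizol, per the labels' protocols. Of 54675 probe sets, 62 controls were left out. Of the others, 41091 carried 1 symbol in the platform annotation, 1801 several and 11721 none. Among those with 1 symbol, 41037 were matched by Entrez identifier to a RefSeq gene, whose symbol was used. Each gene was represented by its brightest probe set. limma 3.58.1 in R 4.3.3 (lmFit, eBayes) fitted 5 extract means to 15 arrays, with 10 residual degrees of freedom, for 7 comparisons, and p-values were adjusted by Benjamini-Hochberg over 14369 genes within each. All listed genes could be named; those called were given with every array, up to 8 per comparison by size.

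The genes, lists and tests were chosen with earlier results of these data known. The fit was tested on simulated data, and alternatives covered normalization, filters, fold minimum, probe set choice, replicate number or array day as a block, array weights, subsets and leaving out each array. Precision is limited by 3 arrays per extract and 1 culture per condition.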

Additional observations from a re-analysis of the deposited data

How the results depend on the processing

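Counts of called apoptosis genes were recomputed under 27 alternatives. Outside the single omissions of an array, the shares of all tested genes called in the same settings are not given here. A change in these counts therefore cannot be told apart from a change over all genes. No folate against folate had 0 calls, 1 with quantile normalization, 2 with no fold minimum and 2 with only the 6 arrays compared. For 003 against 004 there were 2, but 1 with quantile normalization, 1 with the mean of all probe sets, and 0 with a 2-fold minimum, on the first array day or with only 6 arrays. For MORAb003 against 004 there were 8, but 4 with the mean of all probe sets, 5 at a 2-fold minimum and 0 with only 6 arrays. For 003 against folate there were 0, but 1 with quantile normalization, 3 with array weights and 2 with only 6 arrays. MORAb003 against folate had 2, but 5 with no fold minimum, 0 at 2-fold, 0 on the first array day, 4 with array weights and 4 with only 6 arrays. For 003 against MORAb003 there were 6, but 10 with quantile normalization and 11 with no fold minimum. The count of genes whose antibody arrays lay outside the controls was 1, and 2 with quantile normalization. Leaving out 1 array at a time gave 0 to 2 (no folate against folate), 0 to 4 (003 against 004), 6 to 12 (MORAb003 against 004), 0 to 2 (003 against folate), 0 to 4 (MORAb003 against folate), 0 to 0 (004 against folate), 5 to 7 (003 against MORAb003) and 1 to 2 (antibody arrays outside the controls). Of the values for called genes, 408 kept direction and call, 77 kept direction alone and 1 reversed: TNFRSF10B in MORAb003 against 004 was -0.034 with the mean of all probe sets (adjusted p = 0.737). The cause was not tested. With the replicate number as a block the counts were 0, 2, 8, 0, 2, 0 and 6, as without it. Arrays of the same number did not deviate together (median r = -0.065 over 30 pairs, 8 of them over 0.1), and 5 of 15 arrays correlated best with their own number, so the numbers give no pairing.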
